A study of Mus musculus with 5 samples.

Results

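The genes described here are 35 imprinted genes of the mouse in 15 clusters, chosen as a list of gene symbols and not by their values in these arrays. They were found through the probe sets whose platform annotation gives a single gene symbol, and for each gene the probe set brightest on average across the 5 arrays stood for it. Of the 35 genes 31 were measured in this way, with 83 probe sets, out of 18193 genes on the array. Dio3, Rtl1 and Zrsr1 had no probe set with their symbol alone, and the H19 probe set also carries the symbol of a microRNA gene, so these 4 genes have no value here. Affymetrix arrays were hybridised with total RNA from E14 cells, a mouse embryonic stem cell line, of the genotype Trip12 mut/mut (3 arrays) or wild type (WT, 2 arrays). Both genotypes share the line, a feeder layer of mouse embryo fibroblasts and a medium with serum replacement, a little fetal bovine serum and leukaemia inhibitory factor. No source used here states the nature of the mutation, the number of clones behind the 3 mutant arrays or whether feeder cells were removed. The replicates are called biological in the labels, but no label says that they came from separate cultures, so p-values measure the spread between these arrays.

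An imprinted gene is transcribed mainly from the copy inherited from a single parent. The choice is set by DNA methylation laid down in the egg or sperm at imprinting control regions, kept through cell division by maintenance methylation, and read out over whole clusters by long noncoding RNAs or insulators. Many imprinted genes act on growth, placenta and brain, and in cultured embryonic stem cells their levels are known to drift between lines and passages. Trip12 encodes a ubiquitin ligase of the HECT type. The comparison asks which imprinted transcripts differ in level between the mutant and WT cells. The arrays measure total transcript, not the parental origin of it.

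The starts of 4 genes are shown, chosen for their differences or their place in a cluster. Mest, Mirg and Phlda2 had the largest negative differences among the brighter members, and Meg3 heads the noncoding unit that also holds Mirg. Whether the start sequences bear on the differences was not tested. Each line is the 300-base window from 250 bases before to 50 bases after an annotated transcript start (RefSeq, GRCm38.p6), with every CG dinucleotide, the site of DNA methylation, in capitals. Where a gene has several starts, the window with the most CG is given. The Mest window lies at chr6:30737800-30738099 on the plus strand, the Mirg window at chr12:109734731-109735030 (plus), the Phlda2 window at chr7:143502475-143502774 (minus) and the Meg3 window at chr12:109540746-109541045 (plus).
Mest: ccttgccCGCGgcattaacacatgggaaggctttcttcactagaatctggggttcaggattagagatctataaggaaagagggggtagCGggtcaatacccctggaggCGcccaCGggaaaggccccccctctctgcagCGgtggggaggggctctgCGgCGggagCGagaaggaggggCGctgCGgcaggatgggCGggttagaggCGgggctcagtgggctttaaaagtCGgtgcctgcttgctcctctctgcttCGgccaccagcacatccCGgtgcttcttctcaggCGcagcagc
Mirg: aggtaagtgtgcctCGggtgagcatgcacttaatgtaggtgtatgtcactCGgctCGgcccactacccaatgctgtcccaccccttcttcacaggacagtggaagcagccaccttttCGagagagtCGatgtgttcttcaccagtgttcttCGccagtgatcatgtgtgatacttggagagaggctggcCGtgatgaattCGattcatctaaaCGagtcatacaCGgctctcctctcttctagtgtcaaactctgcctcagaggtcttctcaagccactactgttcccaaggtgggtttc
Phlda2: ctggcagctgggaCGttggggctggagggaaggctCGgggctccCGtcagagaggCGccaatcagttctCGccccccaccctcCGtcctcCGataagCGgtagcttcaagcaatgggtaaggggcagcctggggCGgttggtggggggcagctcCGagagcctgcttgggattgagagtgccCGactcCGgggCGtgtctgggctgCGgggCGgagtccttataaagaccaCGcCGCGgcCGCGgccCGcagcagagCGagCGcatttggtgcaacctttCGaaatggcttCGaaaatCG
Meg3: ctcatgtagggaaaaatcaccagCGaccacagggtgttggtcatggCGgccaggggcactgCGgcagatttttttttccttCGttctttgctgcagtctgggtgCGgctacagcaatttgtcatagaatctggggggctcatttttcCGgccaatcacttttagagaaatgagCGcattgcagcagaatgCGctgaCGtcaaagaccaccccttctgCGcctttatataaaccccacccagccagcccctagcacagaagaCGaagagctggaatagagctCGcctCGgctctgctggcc

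The Phlda2 window held 26 CG, a number reached by 16.9% of the 32851 windows in the table. The Mest window held 17 (31.4% of windows), the Meg3 window 13 (37.9%) and the Mirg window 10 (43.5%). Over the 26 measured members with a window that could be used, the median was 16 CG, beside 8 over the 27025 genes of the table taken the same way. The motif TGCCGC, which the imprint-protecting zinc finger protein Zfp57 recognises when methylated, was searched on both strands. It was present in 9 of the 26 member windows (34.6%) and in 12.2% of all 27025, with 2 matches in the Mest window, 1 in the Meg3 window and 0 in the windows of Mirg and Phlda2. The motif itself holds a CG. A match describes the letters and is not a bound site.

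Mirg is a host transcript of microRNAs, and mature sequences it carries are shown because Mirg is among the members that differ most. RefSeq places 10 hairpins with 19 mature microRNAs within Mirg. Of these, 2 share a seed (bases 2 to 8, in capitals), and a further 3 stand beside them for comparison. The arrays did not measure mature microRNAs.
mmu-miR-453: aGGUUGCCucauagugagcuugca
mmu-miR-496a-5p: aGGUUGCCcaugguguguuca
mmu-miR-154-5p: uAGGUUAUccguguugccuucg
mmu-miR-409-3p: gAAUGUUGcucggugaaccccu
mmu-miR-410-3p: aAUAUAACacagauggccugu

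Values are RMA values on the log2 scale, in which 1 unit is a 2-fold step, and differences are mutant minus WT. Signals of different probe sets are not comparable as amounts, so each gene is compared only with itself. The arrays labelled as mutant replicates 1, 2 and 3 are called mutant arrays 1, 2 and 3. The brightest Trip12 probe set read 10.18, 12.09 and 12.57 on mutant arrays 1, 2 and 3, and 10.17 and 10.25 on the WT arrays. Without mutant array 1 its difference, 2.12, was the highest of all 18193 genes. Whether the probes of this probe set lie in the mutated part of the gene is not known, so it does not check the genotype. Mutant array 1 stood with the WT arrays, against its label: no probe set differed by more than 2-fold between it and either WT array, whereas mutant arrays 2 and 3 differed from the WT arrays at 293 to 545 of 45037 probe sets. Among the 23 brighter members, mutant array 1 lay between -0.12 and 0.17 of the WT mean. Each result is therefore given over all 5 arrays and without mutant array 1. The embryonic stem cell markers listed for this work (15 of 16 measured) were all at or above the median signal on every array. On mutant arrays 2 and 3 both, 7 of the 15 lay below both WT arrays and 3 (Esrrb, Tfcp2l1 and Dppa5a) above. Among all 11692 genes with a group mean at or above the median signal, 22.1% lay below and 35% above. In the comparison without mutant array 1 and dim genes described below, 1.34% of all genes fell and 3.29% rose. Lin28a (-0.97) and Utf1 (-0.80) fell in it (limma, adjusted p = 0.0422 for each), and Esrrb (0.57) was higher but did not pass (adjusted p = 0.0501). Of 9 measured trophoblast markers 5 were at or above the median signal on each array, and Krt8 (-2.04) and Krt18 (-1.28), keratins of simple epithelia, fell there (adjusted p = 0.0420 for each). Of the 9, 3 lay below both WT arrays on mutant arrays 2 and 3, and 1, the dim Gata3, lay above. Of 10 endoderm markers 6 or 7 were at or above the median signal on each array, and none of the 6 tested passed. Fibroblast markers (28 of 29 measured) averaged 10.22, 10.78 and 10.74 on mutant arrays 1, 2 and 3, and 10.24 on both WT arrays, with 27 of the 28 at or above the median signal on each array. On mutant arrays 2 and 3 both, 22 of the 28 lay above both WT arrays and 0 below, against the shares of 35% and 22.1% given above. In the comparison without mutant array 1 and dim genes, 8 of the 27 tested rose and 0 fell (limma, adjusted p below 0.05). Of all genes there, 3.29% rose and 1.34% fell. In RNA of a mixed culture, fewer cells of a type and less RNA per cell cannot be told apart.

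Over all 5 arrays 0 of the 31 imprinted genes passed the test (limma, adjusted p below 0.05), as did 0 of 18193 genes (0%). An unadjusted p below 0.05 was found for 1 member and 214 genes. Without mutant array 1 again 0 of 18193 genes passed (0%), with an unadjusted p below 0.05 for 9 members and 3730 genes. When genes were also required to exceed 5.52, the median of all probe set values, on at least 2 of the 4 arrays, 11626 genes remained, 23 of them members. In that filtered comparison 2 of the 23 members fell, Mirg and Mest, beside 1.34% of all genes, and 0 rose, beside 3.29% of all genes. These p-values come after an array was set aside for its values and are too favourable. At the level of single probe sets, 0 of 50 member probe sets passed in the same comparison, where 15 of 22734 passed.

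**Figure D1:**
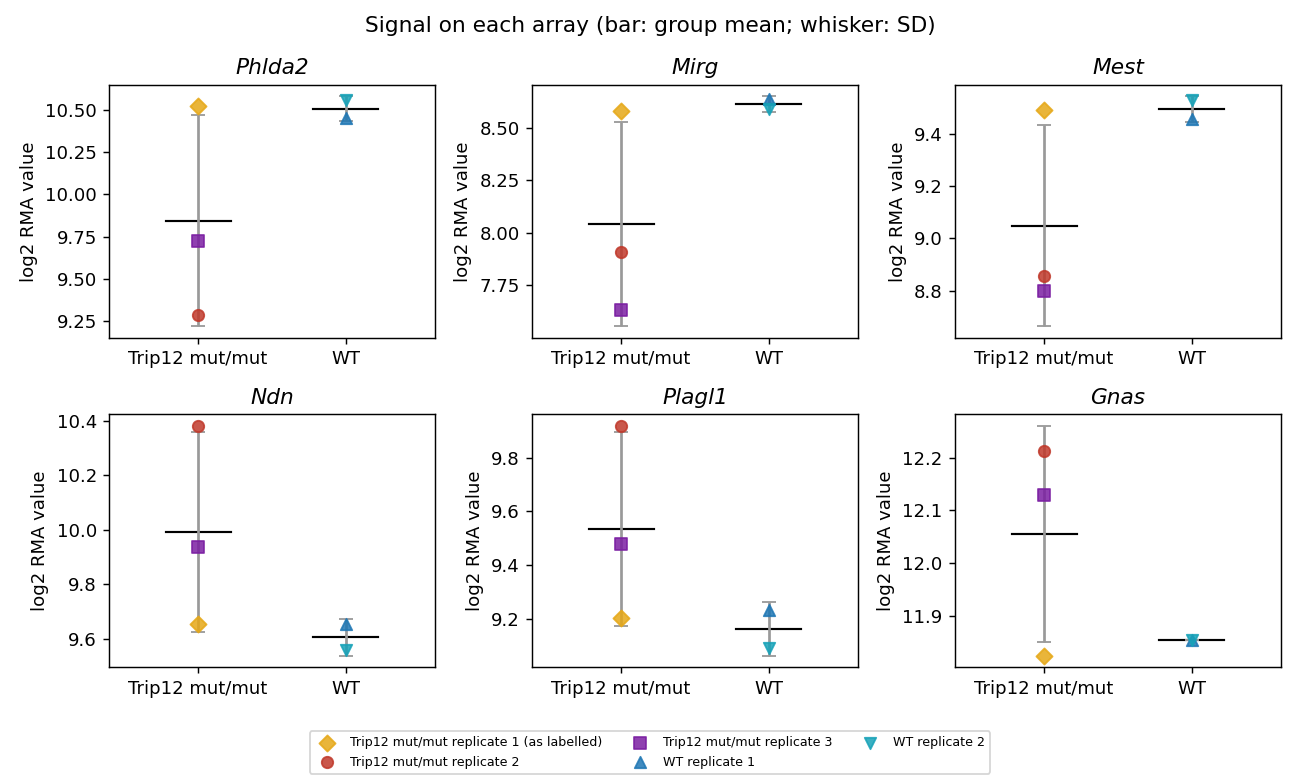
Log2 RMA value (y axes, each with its own range and not starting at 0) of Phlda2, Mirg, Mest, Ndn, Plagl1 and Gnas in Trip12 mut/mut (left, 3 arrays) and WT (right, 2 arrays); bars are group means and whiskers the SD. For the upper 3 genes mutant arrays 2 and 3 lie below both WT arrays and for the lower 3 above them, while the array labelled mutant replicate 1 lies within 0.05 of the WT mean in all 6.

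In 10 of the 23 brighter members (a group mean at or above 5.52) mutant arrays 2 and 3 both lay below both WT arrays, and in 6 both lay above. Among all 11692 genes of that brightness the shares were 22.1% below and 35% above. With mutant array 1 included, 1 of the 23 lay below on all 3 mutant arrays (Mirg, beside 7.91% of these genes) and 1 above (Cd81, beside 6.3%). The median difference of the 31 members was -0.03 over all 5 arrays, against 0.02 over all genes, and -0.06 against 0.02 without mutant array 1. In the filtered comparison the middle of the member differences ran from -0.40 (lower quartile) to 0.17 (upper quartile), against -0.13 to 0.24 over all 11626 genes.

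**Figure D2:**
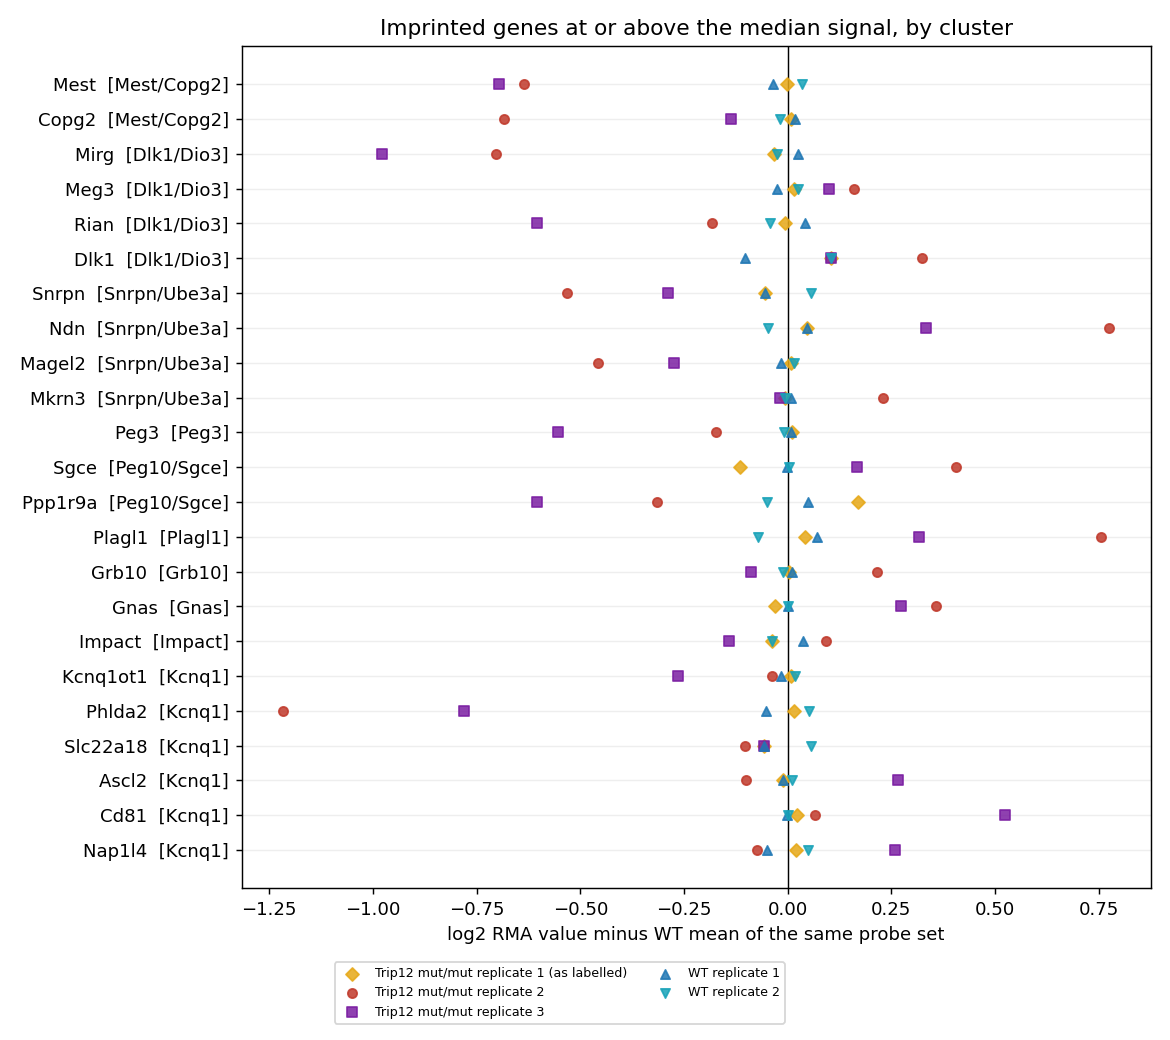
Difference of each array from the WT mean of the same probe set (x axis, log2) for the 23 imprinted genes at or above the median signal, ordered by cluster (in brackets); each symbol is 1 array. The array labelled mutant replicate 1 sits with the WT arrays between -0.12 and 0.17, and mutant arrays 2 and 3 reach from -1.22 for Phlda2 to 0.78 for Ndn.

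In the Mest/Copg2 cluster both genes read lower on mutant arrays 2 and 3. Mest, expressed from the paternal copy, encodes a membrane protein of the hydrolase fold family and is a marker of mesoderm. It read 9.49, 8.86 and 8.80 on mutant arrays 1, 2 and 3, and 9.46 and 9.53 on the WT arrays. Mutant arrays 2 and 3 lie close together and well below the WT pair. Without mutant array 1 Mest fell by 0.67 (SE 0.07), or 1.59-fold, with an adjusted p of 0.0422 in the filtered comparison and 0.0785 with every gene kept. Over all 5 arrays the difference was -0.44 (SE 0.24, adjusted p = 0.748). Copg2, the neighbouring gene for a coatomer subunit of Golgi transport, read 8.64, 7.95 and 8.50 on the mutant arrays, and 8.65 and 8.62 on the WT arrays. Only mutant array 2 was far from WT, and the difference without mutant array 1 was -0.41 (SE 0.21, adjusted p = 0.287).

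In the Dlk1/Dio3 cluster all probe sets of the maternally expressed noncoding RNAs Mirg and Rian read lower on mutant arrays 2 and 3, and those of Meg3 were spread to both sides of WT. Differences between these RNAs were not tested. Mirg read 8.58, 7.91 and 7.64 on the mutant arrays, and 8.64 and 8.59 on the WT arrays. Its second probe set read 7.51, 6.48 and 6.82 on the mutant arrays, and 7.56 and 7.43 on the WT arrays. Both probe sets thus had mutant arrays 2 and 3 below WT, with the same difference of -0.84 without mutant array 1. For the brighter probe set this was 1.79-fold lower (SE 0.12, adjusted p = 0.0495 in the filtered comparison, 0.0890 with every gene kept, and 0.748 over all 5 arrays).

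Rian, the noncoding RNA between Meg3 and Mirg and a host of small nucleolar RNAs, was represented by 4 probe sets that all read lower on mutant arrays 2 and 3. The brightest read 11.36, 11.18 and 10.76 on the mutant arrays, and 11.41 and 11.32 on the WT arrays. Without mutant array 1 its difference was -0.39 (SE 0.17, adjusted p = 0.226), and the 4 probe sets ranged from -0.68 to -0.39. Meg3, the first transcript of the unit, was represented by 10 brighter probe sets that did not move together. Its brightest read 12.40, 12.54 and 12.48 on the mutant arrays, and 12.36 and 12.41 on the WT arrays, a difference of 0.13 (SE 0.07, adjusted p = 0.315). In 3 Meg3 probe sets mutant arrays 2 and 3 were above both WT arrays, and in 4 they were below. The 3 lowest, with WT means of 8.60, 8.18 and 7.15, differed by -0.63, -0.52 and -0.54, and the highest, with a WT mean of 10.25, by 0.27. The parts of Meg3 that these probe sets cover are not stated in the annotation used here. With the mean of all Meg3 probe sets the difference over all 5 arrays was -0.07, opposite in sign to that of its brightest probe set.

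Dlk1, a paternally expressed membrane ligand related to the Notch ligands, read 6.12, 6.34 and 6.12 on the mutant arrays, and 5.91 and 6.12 on the WT arrays. The groups touched, and the difference was 0.21 without mutant array 1 (SE 0.13, adjusted p = 0.351). With the mean of its probe sets the difference over all 5 arrays was -0.06.

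**Figure D3:**
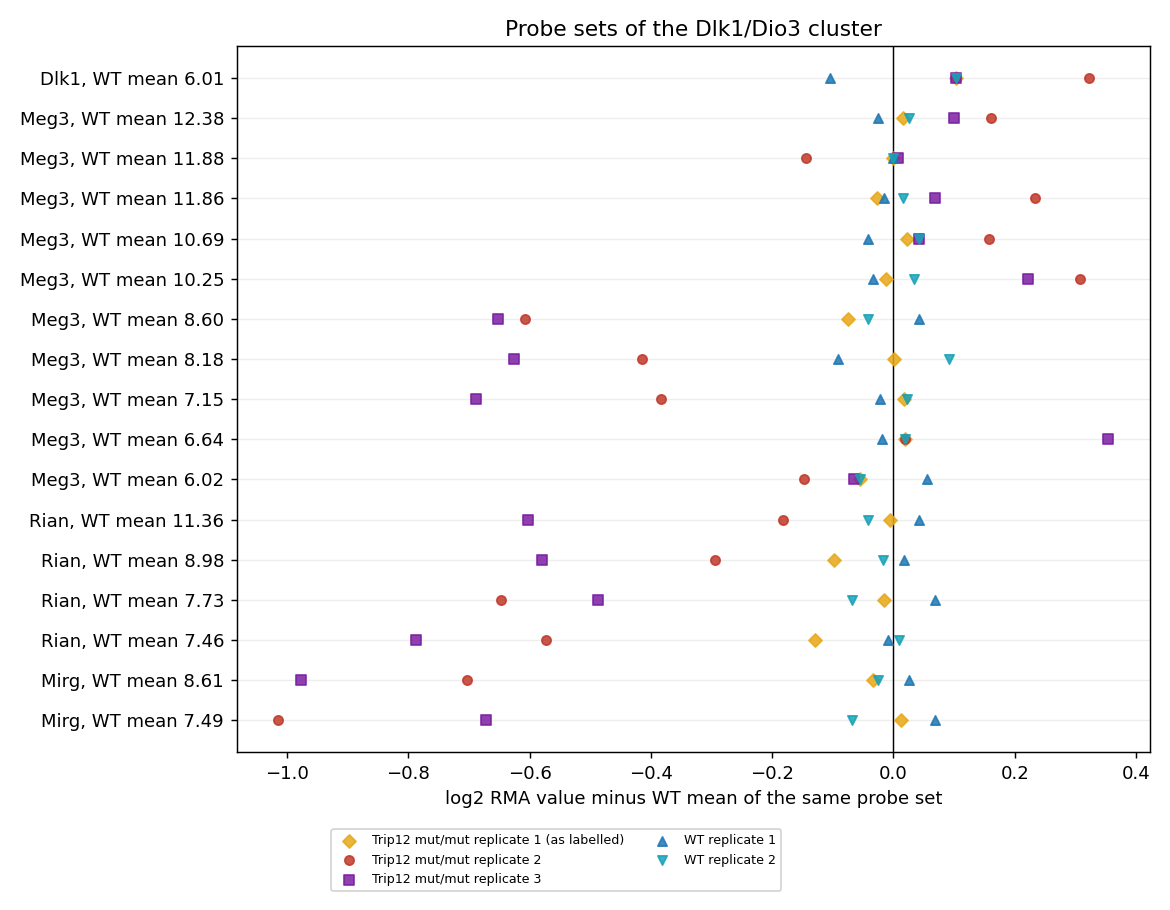
Difference of each array from the WT mean (x axis, log2) for the 17 brighter probe sets of Dlk1, Meg3, Rian and Mirg, ordered by gene and by WT mean; each symbol is 1 array. All Rian and Mirg probe sets and 4 of the 10 Meg3 probe sets have mutant arrays 2 and 3 both to the left of 0, while the brightest Meg3 probe sets lie near 0 or to its right.

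In the Snrpn/Ube3a cluster, paternally expressed genes differed in opposite directions and none passed the test. Ndn, which encodes the growth-suppressing protein necdin, read 9.65, 10.38 and 9.94 on the mutant arrays, and 9.65 and 9.56 on the WT arrays. Its difference without mutant array 1 was 0.55 (SE 0.17, adjusted p = 0.140), and 4 of its 5 brighter probe sets had mutant arrays 2 and 3 above both WT arrays, with differences of 0.14 to 0.55 over the 5. Magel2, the adjacent gene for a relative of necdin, read 6.69, 6.22 and 6.40 on the mutant arrays, and 6.66 and 6.70 on the WT arrays (difference -0.37, SE 0.09, adjusted p = 0.0988). Snrpn encodes a spliceosomal protein and gave 6.06, 5.58 and 5.83 on the mutant arrays, and 6.06 and 6.17 on the WT arrays (difference -0.41, SE 0.12, adjusted p = 0.118). Ndn and Magel2, neighbours on chromosome 7, thus lay on opposite sides of WT on mutant arrays 2 and 3. A further 6 probe sets carry both Snrpn and Snurf and name neither gene here. Mkrn3, a ring finger gene known for its part in the timing of puberty, read 6.25, 6.49 and 6.24 on the mutant arrays, and 6.26 and 6.25 on the WT arrays. Mutant arrays 2 and 3 disagreed for it (difference 0.11, SE 0.11, adjusted p = 0.552).

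In the Kcnq1 cluster Phlda2 had the largest difference of all members. Phlda2, maternally expressed, encodes a pleckstrin homology protein that restrains placental growth. It read 10.52, 9.29 and 9.73 on the mutant arrays, and 10.45 and 10.56 on the WT arrays. Mutant arrays 2 and 3 lay 1.22 and 0.78 below the WT mean, and without mutant array 1 the difference was -0.999 (SE 0.17), a 2.00-fold lower signal that missed the threshold (adjusted p = 0.0586). With quantile normalisation in the same filtered comparison its adjusted p was 0.0432, where 998 of 11647 genes passed against 539 of 11626 without it. Over all 5 arrays the difference was -0.66 (SE 0.39, adjusted p = 0.748).

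The other listed members of the Kcnq1 cluster stayed closer to WT. Outside the list, Tnfrsf23 and Tnfrsf22 of the Kcnq1 region rose in the filtered comparison (0.75 and 0.63), as described below. Kcnq1ot1, the paternal noncoding RNA that silences the cluster, read 8.69, 8.65 and 8.42 on the mutant arrays, and 8.67 and 8.70 on the WT arrays (difference -0.15, SE 0.10, adjusted p = 0.415). Its 4 brighter probe sets ranged from -0.55 to 0.0038. Cd81, a tetraspanin, read 12.21, 12.25 and 12.71 on the mutant arrays, and 12.19 on both WT arrays, with only mutant array 3 clearly above (difference 0.30, SE 0.18, adjusted p = 0.356). Nap1l4, a histone chaperone gene, read 10.97, 10.87 and 11.20 on the mutant arrays, and 10.90 and 11.00 on the WT arrays, so mutant arrays 2 and 3 lay on opposite sides of WT. The same held for Ascl2, a transcription factor of the trophoblast, with 6.73, 6.64 and 7.01 on the mutant arrays, and 6.73 and 6.75 on the WT arrays. Slc22a18, a transporter gene, read 5.95, 5.90 and 5.95 on the mutant arrays, and 5.95 and 6.06 on the WT arrays. The adjusted p of these last 3 genes in the filtered comparison lay between 0.530 and 0.727.

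In the Peg3 cluster the 1 brighter member read lower on mutant arrays 2 and 3. In the Peg10/Sgce cluster the 2 brighter members lay on opposite sides of WT on these arrays. Peg3, a paternally expressed zinc finger gene, read 10.06, 9.88 and 9.50 on the mutant arrays, and 10.06 and 10.04 on the WT arrays. The difference was -0.36 (SE 0.15, adjusted p = 0.218), and its 3 brighter probe sets ranged from -0.76 to -0.36 with mutant arrays 2 and 3 below WT in each. Ppp1r9a, which encodes neurabin, an actin-binding regulator of protein phosphatase, read 8.11, 7.63 and 7.34 on the mutant arrays, and 7.99 and 7.89 on the WT arrays. Mutant array 1 was the highest of the 5, and mutant arrays 2 and 3 the lowest. The difference without mutant array 1 was -0.46 (SE 0.13, adjusted p = 0.113), and its 4 brighter probe sets ranged from -0.98 to -0.31. With the mean of each gene's probe sets in that comparison, Ppp1r9a (adjusted p = 0.0237), Peg3 (0.0457) and Rian (0.0365) passed as lower. With that mean 1461 of 10433 genes passed in either direction, against 539 of 11626 with the brightest probe set of each gene. Sgce, the paternally expressed gene for epsilon-sarcoglycan, went the other way, with 7.87, 8.39 and 8.15 on the mutant arrays, and 7.98 on both WT arrays (difference 0.29, SE 0.11, adjusted p = 0.186).

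Among genes in clusters with a single measured member, Plagl1 and Gnas were higher on mutant arrays 2 and 3 without passing the test. Plagl1, a paternally expressed zinc finger gene linked to growth arrest, read 9.20, 9.92 and 9.48 on the mutant arrays, and 9.23 and 9.09 on the WT arrays (difference 0.54, SE 0.18, adjusted p = 0.152). Gnas, the gene of the stimulatory G protein alpha subunit, read 11.82, 12.21 and 12.13 on the mutant arrays, and 11.85 on both WT arrays (difference 0.32, SE 0.07, adjusted p = 0.0845). For Gnas the WT values were equal and the mutant pair tight, and its adjusted p was the next smallest among the members after Mirg, Mest and Phlda2. Grb10, an adaptor that restrains insulin and growth factor signalling, read 10.42, 10.63 and 10.33 on the mutant arrays, and 10.43 and 10.41 on the WT arrays. Impact, a regulator of translation through the kinase Gcn2, read 10.66, 10.79 and 10.55 on the mutant arrays, and 10.73 and 10.66 on the WT arrays. For both genes mutant arrays 2 and 3 lay on opposite sides of WT, with differences of 0.06 (SE 0.13) and -0.02 (SE 0.11).

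The remaining 8 members had group means below 5.52 in both genotypes. They were Peg10, Asb4, Nnat, Peg12, Zim1, Kcnq1, Nap1l5 and Rasgrf1. RMA gives no detection call, so whether these transcripts were present is not known. Peg10, derived from a retrotransposon and needed in the placenta, read 5.36, 4.72 and 4.79 on the mutant arrays, and 5.57 and 5.30 on the WT arrays. Asb4, a subunit of ubiquitin ligases, read 4.78, 4.23 and 4.62 on the mutant arrays, and 5.14 and 5.01 on the WT arrays. Nnat, a proteolipid gene of the developing brain, gave 4.53, 4.20 and 4.48 on the mutant arrays, and 4.60 and 4.53 on the WT arrays. For these 3 genes, mutant arrays 2 and 3 lay below both WT arrays, and for Asb4 mutant array 1 did too. The other Asb4 probe set, also dim, likewise had all 3 mutant arrays below both WT arrays. The share of all dim genes that lay below was not computed. The other 5 dim genes overlapped between groups. None of the 8 entered the filtered comparison.

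By the parental copy that is expressed, the members divided as follows. Of the 11 brighter paternally expressed members, mutant arrays 2 and 3 were below both WT arrays for 5 and above for 3, with a median difference of -0.02. Of the 9 maternally expressed ones the counts were 4 and 2, with a median of -0.08. Over all 11692 genes of that brightness 22.1% lay below and 35% above. The shares below were 45.5% of the paternally and 44.4% of the maternally expressed members, and the shares above were 27.3% and 22.2%. These shares rest on only 11 and 9 genes. Copg2, Grb10 and Gnas, whose imprinting depends on tissue or isoform, were kept apart. Tissue dependence of the other members was not considered in this split, and the copy expressed in these cells was not measured. The parental assignment is textbook knowledge, added after the values were seen, and no test was made.

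Imprinted genes outside the list were described in the same way. Of 56 further imprinted genes 47 were measured and 40 entered the filtered comparison, in which 5 rose, beside 3.29% of all genes, and 0 fell, beside 1.34%. Their median difference was 0.16, against 0.05 over all genes there and -0.02 for the 23 members. The 5 were Tfpi2, a protease inhibitor gene of the Peg10 region (0.69, SE 0.07, adjusted p = 0.0420), Osbpl5, an oxysterol-binding protein gene (0.65, adjusted p = 0.0420), Tnfrsf23 and Tnfrsf22, decoy receptor genes of the Kcnq1 region (0.75 and 0.63, adjusted p = 0.0426 and 0.0489), and Pon3, a paraoxonase gene (0.59, adjusted p = 0.0467). Tfpi2 read 10.67, 11.36 and 11.36 on the mutant arrays, and 10.69 and 10.65 on the WT arrays. Qpct and Axl had larger differences, 0.80 and 0.79, and did not pass (adjusted p = 0.0553 and 0.0530). The most negative in that comparison were Zdbf2 (-0.51), Atp10a (-0.50), Ube3a (-0.45) and Commd1 (-0.44), with adjusted p-values of 0.0615 to 0.252. Over all 5 arrays 0 of the 47 passed, and 0 had an unadjusted p below 0.05.

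**Figure D4:**
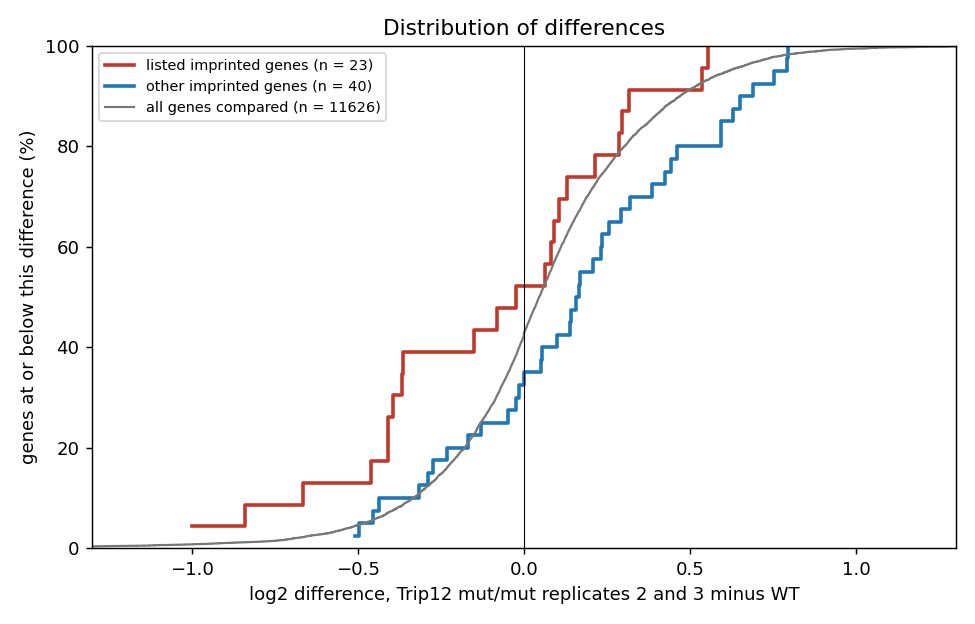
Share of genes (y axis, %) at or below each log2 difference between mutant arrays 2 and 3 and WT (x axis) for the 23 listed imprinted genes, 40 other imprinted genes and all 11626 genes of the filtered comparison. The listed genes have a lower quartile of -0.40 against -0.13 over all genes, and the other imprinted genes have a median of 0.16 against 0.05.

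Regulators of imprints were read beside their targets. Of 24 such genes 23 were measured and 22 entered the filtered comparison, where 3 fell, beside 1.34% of all genes, and 0 rose, beside 3.29%. Of the 22 differences 18 were below 0, with a median of -0.19 against 0.05 over all genes. Of the 23 measured, 11 had mutant arrays 2 and 3 below both WT arrays and 2, Dnmt3l and Zfp57, had them above. Among all 11692 genes with a group mean at or above 5.52 the shares were 22.1% below and 35% above. The genes that fell were Dppa3, which shields methylation in the early embryo (-2.10), and the de novo DNA methyltransferase genes Dnmt3b (-1.69) and Dnmt3a (-1.03). Dppa3 read 9.79, 7.67 and 7.76 on the mutant arrays, and 9.82 on both WT arrays. Zfp57, which protects imprints after fertilisation, read 6.75, 7.34 and 6.94 on the mutant arrays, and 6.85 and 6.74 on the WT arrays (0.35, SE 0.16, adjusted p = 0.253). The maintenance methyltransferase gene Dnmt1 read 10.92, 10.96 and 10.68 on the mutant arrays, and 10.88 and 10.90 on the WT arrays (-0.07, SE 0.12, adjusted p = 0.722). Smchd1 (-0.70, SE 0.10, adjusted p = 0.0525), Dnmt3l (0.51, SE 0.09, adjusted p = 0.0622) and Uhrf1 (-0.32, SE 0.06, adjusted p = 0.0735) did not pass. Methylation of imprinted regions was not measured. On the same mutant arrays 2 and 3 on which Mest, Mirg and Phlda2 read lower and Ndn and Plagl1 higher, most fibroblast markers were higher. Lin28a and Utf1 were among 7 of 15 embryonic stem cell markers that lay below both WT arrays there, and 3 lay above. Krt8 and Krt18 were among 3 of 9 trophoblast markers that lay below, and 1 lay above. The part of these markers in the members' differences was not tested.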

How the data were processed

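The study measured RNA of embryonic stem cells on 5 Affymetrix arrays, 3 Trip12 mut/mut and 2 WT, grouped by their titles. Each array has 1 deposited log2 value per probe set. Per the submitters' processing notes the authors used RMA, which corrects background, normalises between arrays and summarises probes, with no version stated. RMA aligns arrays, so a shift of all transcripts could not be seen. With 5 arrays, their number sets the precision.

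Of 45101 probe sets 64 array controls were left out. The platform annotation named 34945 of the rest with 1 symbol, 932 with several and 9160 with none. For 34741 of them the symbol came through the gene number from a RefSeq table of GRCm38.p6, which also gave the sequences. The two-sided test was limma 3.58.1 (R 4.3.3), with lmFit and eBayes on genotype alone, fitted on all genes, with Benjamini-Hochberg adjustment over all genes tested. The call threshold was an adjusted p of 0.05. The filtered comparison left out mutant array 1 and kept genes above 5.52 on at least 2 arrays. SEs given without mutant array 1 are from it. The members, lists, filters and alternatives were chosen with earlier results of these data known. The rule named all members, with array values for those at or above the median signal, and of the other lists the genes called and those with the largest differences. Zfp57, Dnmt1, Peg10, Asb4 and Nnat were given array values after theirs were seen. Dnmt3l, Uhrf1, Smchd1, Esrrb, Tfcp2l1, Dppa5a and Gata3 were also named after their values were seen. The procedure was tested on simulated data. Figures used matplotlib 3.10.9.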

Additional observations from a re-analysis of the deposited data

How the results depend on the processing

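Over all 5 arrays the counts of passing genes stayed at 0 for the members, the other imprinted genes and all genes under quantile normalisation, centred array medians, removal of dim genes, a variance trend with robust estimation, the mean of probe sets, the replicate block and each array left out. Only leaving out mutant array 1 together with dim genes gave calls: 539 of 11626 genes, 2 of 23 members and 5 of 40 other imprinted genes. To that comparison 3 settings were added after the data were seen. Quantile normalisation gave 998 of 11647 genes, 3 of 23 members (Phlda2 added) and 10 of 39 other imprinted genes. A variance trend with robust estimation gave 744 of 11626, 2 of 23 and 7 of 40. The mean of probe sets gave 1461 of 10433, 6 of 21 and 8 of 35. Mest and Mirg passed in all 4. The median of the other imprinted genes was 0.16 there and with the trend, against 0.07 over all 5 arrays, and the median of the members was -0.10 with the mean of probe sets. Without each array in turn the member median ranged from -0.06 to 0.01.

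Of the 23 brighter members 9 changed sign under an alternative, and none of these 9 passed under any. With the mean of probe sets Meg3 was at -0.0739, Dlk1 at -0.0587, Grb10 at -0.0701, Gnas at -0.00449 and Slc22a18 at 0.0934. In the filtered comparison with that mean, Meg3 was at -0.108, Grb10 at -0.0907, Impact at 0.0248 and Slc22a18 at 0.135. With the replicate block Impact was at 0.0277, Ascl2 at -0.0562 and Nap1l4 at -0.0278, and the member median was -0.0179. Leaving out each array in turn, Mkrn3 ranged from -0.0132 to 0.112, Grb10 from -0.0422 to 0.109, Impact from -0.0898 to 0.0277, Ascl2 from -0.0562 to 0.128 and Nap1l4 from -0.0278 to 0.139. The cause was not tested. Replicate numbers are shared by 2 pairs, whose deviations from their group means correlated at -0.04 and -0.08. With 2 WT arrays the WT deviations mirror each other, so these correlations cannot decide whether the numbers pair the arrays.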
